A study of Homo sapiens with 6 samples.

Results

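NF-kB pathway genes and inflammatory cytokines were examined in 67R cells after knockdown of BCAT1. The 38 genes were taken by symbol from a table of 60664 genes, and comprise 19 secreted factors, 10 NF-kB subunits and inhibitors, and 9 signalling proteins and other effectors. Of these, 32 averaged 1 TPM or more across the 6 libraries and were tested, and 6 lay below that level. 67R is a lung adenocarcinoma line that was derived from NCI-H1975 by culture in rising doses of the EGFR inhibitor ASK120067. The 67R cells received either a negative control siRNA (siNC, 3 libraries) or an siRNA against BCAT1 (siBCAT1, 3 libraries), so that all 6 libraries share the resistant background and the transfection. BCAT1 is the cytosolic aminotransferase that starts the breakdown of branched-chain amino acids. The study's methods name a single siRNA sequence for siBCAT1, the labels name no time after transfection and no drug, and nothing in them says whether the 3 libraries of a group came from separate cultures. The p-values below therefore measure the spread between these libraries, which may be technical.

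NF-kB is a family of dimeric transcription factors. In resting cells inhibitors of the IkB family hold the dimers in the cytoplasm. Receptors for TNF, IL1 and microbial products signal through TRAF and IRAK proteins to a kinase complex that marks the inhibitors for degradation, and the freed dimers then bind kappaB sites near genes for chemokines, cytokines, adhesion molecules and the inhibitors themselves. A slower, noncanonical branch runs through MAP3K14 and the NFKB2 and RELB subunits. In lung epithelium and its tumours this pathway is known for secreted chemokines that attract neutrophils and monocytes.

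Many promoters of these genes hold letters of the kind that NF-kB recognises. The 7 printed here belong to the neutrophil chemokine cluster, in which CXCL8 was the gene that rose, or to the widely used reference targets NFKBIA and ICAM1. Each stretch covers 70 bases of RefSeq sequence on GRCh38.p14, read 5′ to 3′ on the strand of the gene, and starts 50 bases before the 9-letter kappaB word. Capitals mark that word, GGAATTTCC, on either strand, and, in CXCL8, the AP-1 word TGANTCA.
CXCL1, chr4:73869265-73869334, + strand: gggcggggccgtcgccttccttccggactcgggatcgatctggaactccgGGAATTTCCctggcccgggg
CXCL2, chr4:74099253-74099322, − strand: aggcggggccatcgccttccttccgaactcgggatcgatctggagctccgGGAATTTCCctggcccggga
CXCL3, chr4:74038748-74038817, − strand: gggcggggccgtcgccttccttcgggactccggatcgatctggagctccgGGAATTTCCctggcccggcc
CXCL5, chr4:73998748-73998817, − strand: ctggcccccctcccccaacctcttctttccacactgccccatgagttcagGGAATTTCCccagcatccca
CXCL8, chr4:73740428-73740497, + strand: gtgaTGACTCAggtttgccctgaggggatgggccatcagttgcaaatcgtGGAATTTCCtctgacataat
NFKBIA, chr14:35404811-35404880, − strand: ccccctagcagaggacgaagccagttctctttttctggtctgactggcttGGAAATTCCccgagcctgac
ICAM1, chr19:10270884-10270953, + strand: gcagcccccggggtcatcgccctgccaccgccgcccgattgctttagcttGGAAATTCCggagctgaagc

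Counted from the RefSeq start of each gene, with negative positions upstream, the first base of the word lies at −78, −77, −78, −90 and −91 in CXCL1, CXCL2, CXCL3, CXCL5 and CXCL8. It lies at −81 in NFKBIA and at −186 in ICAM1, and in both the word is on the opposite strand. These starts do not always match the gene bounds of GENCODE, from which the gene positions given further on were taken. The GENCODE bounds start farther upstream in CXCL8, and in CXCL2, CXCL3, CXCL5 and ICAM1 they take in the word. The CXCL1, CXCL2 and CXCL3 stretches are near copies of each other, with 63 to 65 of 70 bases identical when lined up on the word. The CXCL8 stretch shared 28 to 30 of 70 bases with them, and was the only 1 of the 7 with an AP-1 word.

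Beyond these 7 genes, motifs were counted on both strands of all RefSeq promoters, from 250 bases before to 50 bases after the start. A gene with several starts was counted once if any of its windows held a match. The longer kappaB consensus was found in 1937 of 27305 genes (7.09%), the 9-letter word in 153 (0.560%) and the AP-1 word in 2558 (9.37%). The consensus and the 9-letter word can overlap in the same bases. Of the 30 member genes with an entry in this table, 16 (53.3%) had the consensus, 11 (36.7%) the 9-letter word and 5 (16.7%) the AP-1 word. Among the 62 other pathway genes with an entry, described further on, the counts were 15, 3 and 8. CCL2, CCL5, IL18, LIF, CSF1, CSF3, RELB and NFKBIE had no entry. A match describes the letters only and does not show that a factor was bound. The members were chosen as genes of the NF-kB pathway, so their high shares are a description and no independent result. The near copies in CXCL1, CXCL2 and CXCL3 are counted as separate genes.

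**Figure D1:**
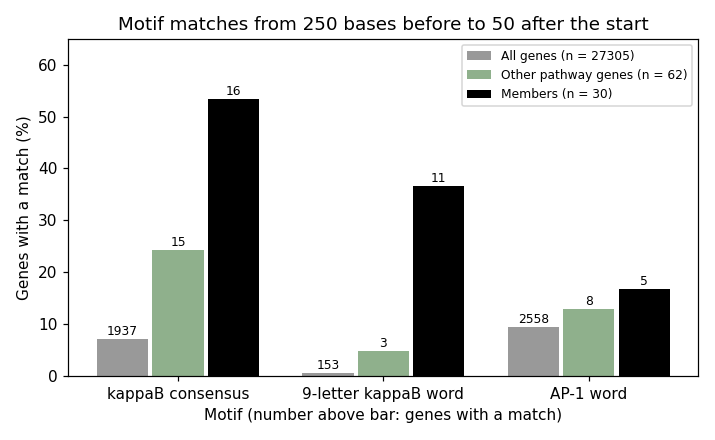
Share of genes (%, bars from 0) whose promoter window holds each motif, for all RefSeq genes (grey), the other pathway genes (green) and the member genes (black), with the number of genes above each bar. Member genes, which were chosen as genes of this pathway, had the consensus in 16 of 30 and the 9-letter word in 11 of 30. Among all genes the shares were 7.09% and 0.560%.

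BCAT1 itself (chr12:24810022-24949459, GRCh38) was measured first. It stood at 42.7, 42.2 and 29.8 TPM in the siNC libraries and at 8.78, 7.1 and 8.0 TPM in the siBCAT1 libraries, with no overlap (38.2 ± 7.33 against 7.96 ± 0.841 TPM, mean ± SD, n = 3 each; log2 fold change −2.12, SE 0.154, limma adjusted p = 0.000272). Each library summed to between 992512 and 995593 TPM, and TPM holds no read depth, so the depth is unknown and no counting error can be given. Of 14286 genes tested, 3865 (27.1%) passed an adjusted p of 0.05, 2382 (16.7%) higher and 1483 (10.4%) lower in siBCAT1, and the groups did not overlap in 6293 genes (44.1%). Epithelial markers were expressed in all 6 libraries (7 of 7 at a mean of at least 1 TPM). The genes listed as lung markers, NKX2-1, SFTPB, SFTPC and NAPSA, stayed below 1 TPM, and SFTPC was at 0 throughout. The epithelial markers moved with the knockdown: 6 of 7 fell, and the summed level of all 7 was 2556 to 2951 TPM in siNC and 1649 to 1937 TPM in siBCAT1. EPCAM went the other way, at 0.91, 1.35 and 1.55 TPM in siNC and 2.42, 1.96 and 2.61 TPM in siBCAT1. Its groups did not overlap, but it did not pass the test (log2 fold change 0.56, limma adjusted p = 0.0732). Of 8 leukocyte markers, 5 were below 1 TPM in mean, CD3E was at 0 in every library and PTPRC in 5 of 6, with summed levels of 4.81 to 6.13 TPM in siNC and 2.55 to 4.58 TPM in siBCAT1. Of 5 stromal markers, COL1A1 and PDGFRB were expressed and fell, and the sums were 16.8 to 24.4 against 11.4 to 14.5 TPM. The part of these shifts in the results below was not tested, and a change in the share of cells cannot be told apart from a change in RNA per cell.

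Knockdown of BCAT1 was accompanied by a rise in CXCL8 and a fall in LIF, TNFAIP2, IL18, CCL2, CSF1, NFKBIE and BCL3. These 8 genes were 25% of the 32 expressed members, near the 27.1% of all tested genes. The 1 rise was 3.125% of the members against 16.7% of all genes, and the 7 falls were 21.875% against 10.4%. The median log2 fold change of the members was −0.18, against 0.04 for all tested genes, with 13 estimates above and 19 below 0. The groups did not overlap in 9 members (28.125%), against 44.1% of all genes. These shares are given as a description, with no test of the list. CXCL8, LIF, TNFAIP2 and IL18 kept their calls under all 12 alternative settings. The calls of CCL2, CSF1, NFKBIE and BCL3 were lost in 5 or 6 of them.

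**Figure D2:**
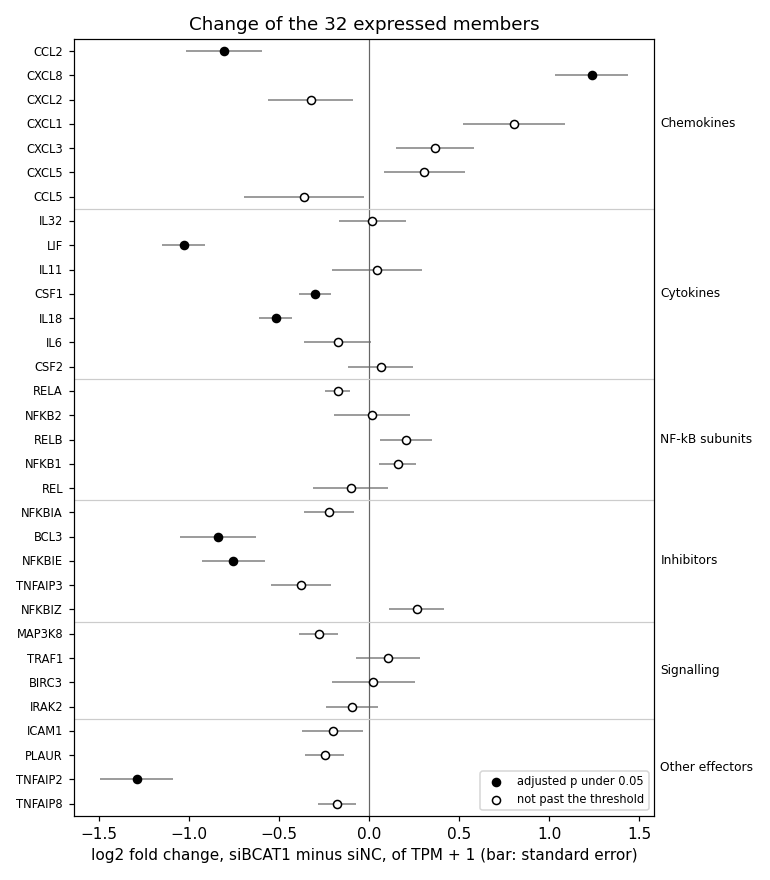
log2 fold change of TPM + 1 (siBCAT1 minus siNC, x axis) of each expressed member, grouped by role and sorted by level within a role; bars are the standard error of the limma fit, n = 3 libraries each. Filled points mark the 8 genes past an adjusted p of 0.05, of which CXCL8 lies to the right of 0 and the other 7 to the left.

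Among the secreted factors 14 of 19 were tested, and 1 rose and 4 fell (35.7% called, 7.14% higher and 28.6% lower, against 27.1%, 16.7% and 10.4% of all tested genes), with a median log2 fold change of −0.08. Their summed level was 742, 559 and 743 TPM in siNC and 720.4, 507 and 644 TPM in siBCAT1. IL32 made up most of that sum. Without IL32 the sums were 321, 238 and 302 TPM in siNC and 241, 204 and 218 TPM in siBCAT1, so that the highest siBCAT1 library stood just above the lowest siNC library.

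Within the 7 chemokines tested, CXCL8 rose while CCL2 fell (28.6% called, against 27.1% of all tested genes). CXCL8 (ENSG00000169429, chr4:73740506-73743716) encodes the neutrophil attractant also called interleukin-8. It stood at 7.09, 7.03 and 4.84 TPM in siNC and at 21.1, 14.9 and 13.1 TPM in siBCAT1. Every siBCAT1 library was above every siNC library, and the mean rose 2.59-fold, from 6.32 ± 1.28 to 16.4 ± 4.19 TPM (log2 fold change 1.24, SE 0.202, adjusted p = 0.00501). No stretch of 50 bases of its transcript occurs in a transcript of another gene.

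CCL2 (ENSG00000108691, chr17:34255218-34257203), which attracts monocytes, was the most abundant chemokine. Its levels were 31.5, 24.2 and 26.9 TPM in siNC and 20.9, 15.0 and 11.2 TPM in siBCAT1, again with no overlap. The mean was 27.5 ± 3.68 TPM in siNC and 15.7 ± 4.90 TPM in siBCAT1, a ratio of 0.570 (log2 fold change −0.81, SE 0.209, adjusted p = 0.0283). The call depended on which libraries were used. It was kept without siNC replicate 2 (adjusted p = 0.0475) and without siBCAT1 replicate 1 (0.0173). The adjusted p was 0.117, 0.0909, 0.0944 and 0.0701 without siNC replicate 1, siNC replicate 3, siBCAT1 replicate 2 and siBCAT1 replicate 3, and 0.0900 with no filter on low values.

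The other CXC chemokines, which attract neutrophils through the receptors CXCR1 and CXCR2, did not pass the test with all libraries. CXCL1 stood at 6.78, 3.63 and 2.57 TPM in siNC and at 8.84, 6.24 and 8.58 TPM in siBCAT1, with siNC replicate 1 inside the siBCAT1 range (log2 fold change 0.80, SE 0.285, adjusted p = 0.0770). It was called higher when siNC replicate 1 was left out. The log2 fold changes were 0.37 for CXCL3 (adjusted p = 0.255), 0.30 for CXCL5 (0.358) and −0.33 for CXCL2 (0.348), at mean levels of 4.19, 2.5 and 8.86 TPM. CXCL1, CXCL2 and CXCL3 share 5.26% to 9.24% of their 50-base words with each other. Some reads may therefore have been assigned to the wrong copy, and their separate values are less certain. CCL5, a T cell attractant, was low and variable, from 0.76 to 2.42 TPM in siNC and from 0.61 to 1.83 TPM in siBCAT1 (log2 fold change −0.36, adjusted p = 0.458). None of CXCL1, CXCL2 and CXCL3 passed the test, and the differences between these 3 genes were not tested.

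**Figure D3:**
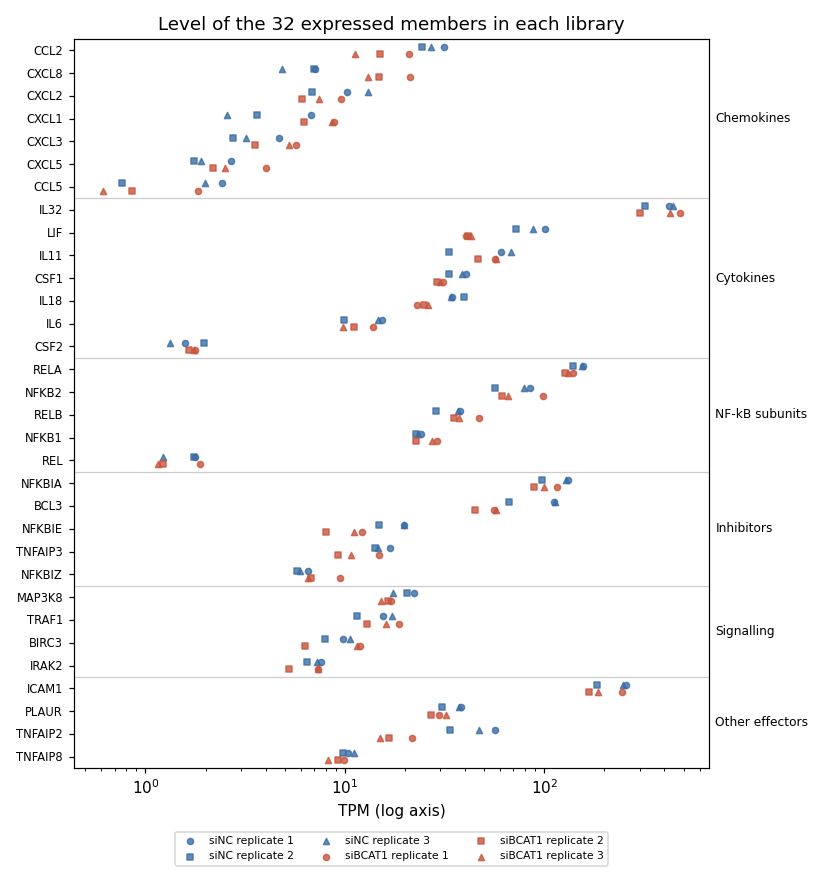
Level of each expressed member in each library (TPM, log axis), blue for siNC and red for siBCAT1, with circles, squares and triangles for replicates 1, 2 and 3; no averages are drawn. The groups separate for CXCL8, where red lies above blue, and for CCL2, LIF, CSF1, IL18, BCL3, NFKBIE, MAP3K8 and TNFAIP2, where red lies below blue.

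Of the 7 cytokines tested, LIF, IL18 and CSF1 fell and none rose (42.9% called lower, against 10.4% of all tested genes). LIF (ENSG00000128342, chr22:30240447-30246851), a cytokine of the IL6 family that acts through LIFR and IL6ST, stood at 100.3, 72.0 and 88.0 TPM in siNC and at 40.6, 41.4 and 42.7 TPM in siBCAT1. The siBCAT1 libraries lay close together and far below the lowest siNC library. The mean went from 86.8 ± 14.2 to 41.6 ± 1.08 TPM, a ratio of 0.479 (log2 fold change −1.03, SE 0.117, adjusted p = 0.00127). Exons of AC004264.1 overlap LIF on the opposite strand. AC004264.1 averaged 2.95 TPM and did not pass the test, with an estimate in the same direction as LIF (log2 fold change −0.82, adjusted p = 0.0793). The libraries were stranded, but the strand setting of the counting is not given in the sources used here.

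IL18 (ENSG00000150782, chr11:112143251-112164117), an IL1-family cytokine that is released after cleavage by caspases, stood at 34.3, 39.5 and 33.9 TPM in siNC and at 23.0, 24.9 and 26.2 TPM in siBCAT1. The groups did not overlap, and the mean went from 35.9 ± 3.13 to 24.7 ± 1.58 TPM (ratio 0.688, log2 fold change −0.52, SE 0.0902, adjusted p = 0.00640). IL18 was also the only 1 of the 8 called members that was highest in siNC replicate 2. CSF1 (ENSG00000184371, chr1:109910242-109930992), the growth factor of macrophages, stood at 40.4, 33.2 and 38.5 TPM in siNC and at 31.2, 28.9 and 30.0 TPM in siBCAT1. Its fall was the smallest of the 8 calls, from 37.3 ± 3.75 to 30.0 ± 1.17 TPM (ratio 0.804, log2 fold change −0.30, SE 0.0906, adjusted p = 0.0455). The CSF1 adjusted p was 0.136, 0.128, 0.0882, 0.133 and 0.110 without siNC replicate 1, siNC replicate 3 and siBCAT1 replicates 1, 2 and 3, and 0.0924 with no filter.

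IL32, a cytokine with no close relatives, was the most abundant of all 38 genes. It stood at 421, 320.4 and 441 TPM in siNC and at 479.6, 302 and 426 TPM in siBCAT1, with overlapping groups (log2 fold change 0.02, SE 0.186, adjusted p = 0.957), and the sign of that estimate turned under other scalings and with single libraries left out. IL11, a relative of LIF, ranged from 33.1 to 68.2 TPM in siNC and from 46.4 to 57.5 TPM in siBCAT1 (log2 fold change 0.04, adjusted p = 0.920). IL6 averaged 12.5 TPM (log2 fold change −0.17, adjusted p = 0.526), and CSF2, a growth factor of granulocytes and macrophages, averaged 1.68 TPM (log2 fold change 0.06, adjusted p = 0.828). Within the IL6 family, then, LIF fell, and IL6 and IL11 did not pass the test.

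None of the 5 NF-kB subunits passed the test (0% called, against 27.1% of all tested genes), with adjusted p from 0.103 to 0.961. All of them were expressed, and their median log2 fold change was 0.02. With 5 genes this count does not set the subunits apart from other genes. RELA, the main activating subunit of the canonical pathway, was the most abundant, at 157, 138 and 155 TPM in siNC and at 139.7, 128 and 131 TPM in siBCAT1. Its lowest siNC library lay just below its highest siBCAT1 library (log2 fold change −0.18, SE 0.0691, adjusted p = 0.103). RELA was called lower without siNC replicate 2 (adjusted p = 0.0333) and after quantile normalization (0.0217), so its side of the threshold depended on these choices. NFKB2, the precursor subunit of the noncanonical branch, averaged 74.2 TPM (log2 fold change 0.02, adjusted p = 0.961), and its partner RELB averaged 37.2 TPM (0.20, adjusted p = 0.336). NFKB1, the precursor of the canonical p50 subunit, averaged 24.9 TPM (log2 fold change 0.16, adjusted p = 0.296). REL was near the filter at 1.5 TPM (log2 fold change −0.10, adjusted p = 0.753), and 50.6% of the 50-base words of its transcript also occur elsewhere, mostly in AC010733.2, which overlaps it on the same strand, so that its level is uncertain.

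Of the 5 inhibitors, NFKBIE and BCL3 fell and none rose (40% called lower, against 10.4% of all tested genes), with a median log2 fold change of −0.38. NFKBIE (ENSG00000146232, chr6:44258166-44265788) encodes IkB epsilon, which retains dimers in the cytoplasm. It stood at 19.9, 14.8 and 19.8 TPM in siNC and at 12.2, 8.03 and 11.1 TPM in siBCAT1. The groups did not overlap, and the mean went from 18.2 ± 2.88 to 10.4 ± 2.13 TPM (ratio 0.573, log2 fold change −0.76, SE 0.174, adjusted p = 0.0184). Its adjusted p was 0.0861, 0.0778, 0.0541 and 0.0537 without siNC replicate 1, siNC replicate 3, siBCAT1 replicate 2 and siBCAT1 replicate 3, and 0.0617 with no filter.

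BCL3 (ENSG00000069399, chr19:44747705-44760044) is an unusual member of the IkB family that works in the nucleus and can activate as well as repress. It stood at 112, 66.4 and 113 TPM in siNC and at 55.8, 45.1 and 57.0 TPM in siBCAT1. Each replicate 2 library was the lowest of its group, and the lowest siNC library still lay above all siBCAT1 libraries (97.3 ± 26.7 against 52.6 ± 6.54 TPM, ratio 0.541, log2 fold change −0.84, SE 0.209, adjusted p = 0.0243). The adjusted p of BCL3 was 0.104, 0.0955, 0.0739, 0.0949 and 0.0652 without siNC replicate 1, siNC replicate 3 and siBCAT1 replicates 1, 2 and 3, and 0.0828 with no filter.

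NFKBIA, which encodes IkB alpha and is the best known feedback target of the pathway, was the most abundant inhibitor. It stood at 132, 97.3 and 129 TPM in siNC and at 115.5, 89.0 and 99.8 TPM in siBCAT1, with overlapping groups (log2 fold change −0.23, SE 0.139, adjusted p = 0.274). TNFAIP3, the ubiquitin-editing enzyme A20, averaged 13.4 TPM (log2 fold change −0.38, adjusted p = 0.136) and was called lower without siBCAT1 replicate 1. NFKBIZ, a nuclear member of the IkB family, averaged 6.83 TPM (log2 fold change 0.26, adjusted p = 0.242). The calls for lower inhibitors therefore covered NFKBIE and BCL3, and the difference between them and NFKBIA was not tested.

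The 4 signalling proteins gave no call (0%, against 27.1% of all tested genes), and a list of 4 genes is too short to set them apart. MAP3K8, a kinase that is held inactive by the NFKB1 precursor, was the most abundant, at 22.2, 20.4 and 17.4 TPM in siNC and at 17.1, 16.4 and 15.2 TPM in siBCAT1. These groups did not overlap, by a margin far below the spread of siNC, and the adjusted p was 0.0958 (log2 fold change −0.28, SE 0.108). MAP3K8 was called lower after median-ratio scaling (adjusted p = 0.0329) and quantile normalization (0.0431). TRAF1, an adaptor of TNF receptors, averaged 15.3 TPM (log2 fold change 0.10, adjusted p = 0.700). BIRC3, a ubiquitin ligase bound by TRAF proteins, averaged 9.65 TPM (0.02, adjusted p = 0.956), and IRAK2, a kinase below IL1 and Toll-like receptors, averaged 6.87 TPM (−0.09, adjusted p = 0.669).

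Among the 4 other effectors tested TNFAIP2 was called (25%, against 27.1% of all tested genes), with the largest fall in log2(TPM + 1) of the 32 tested members. TNFAIP2 (ENSG00000185215, chr14:103123442-103137439), a TNF-induced protein linked to the formation of membrane nanotubes, stood at 56.3, 33.8 and 46.8 TPM in siNC and at 21.7, 16.7 and 15.1 TPM in siBCAT1. The groups were well apart, and the mean went from 45.6 ± 11.3 to 17.8 ± 3.47 TPM (ratio 0.391, log2 fold change −1.29, SE 0.202, adjusted p = 0.00416). ICAM1, the adhesion molecule to which leukocytes bind, was the most abundant effector, at 257, 184 and 247 TPM in siNC and at 244, 168 and 186 TPM in siBCAT1, with overlapping groups (log2 fold change −0.20, SE 0.169, adjusted p = 0.409). PLAUR, the urokinase receptor, averaged 32.4 TPM (log2 fold change −0.25, adjusted p = 0.135) and was called lower without siNC replicate 2. TNFAIP8, named for its induction by TNF like TNFAIP2, averaged 9.78 TPM (−0.18, adjusted p = 0.251).

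The 6 low members were CCL20, IL1A, IL1B, CSF3, TNF and PTGS2, with values from 0 to 0.76 TPM. They include the inducers TNF, IL1A and IL1B, which start NF-kB signalling from outside the cell. TNF lay between 0.29 and 0.65 TPM in all libraries, and PTGS2, the inducible cyclooxygenase, between 0 and 0.04 TPM. CCL20, an attractant of dendritic and T cells, stood at 0.70, 0.52 and 0.76 TPM in siNC and at 0.42, 0.12 and 0.30 TPM in siBCAT1, and IL1A at 0.68, 0.35 and 0.59 against 0.33, 0.12 and 0.17 TPM. In both genes the groups did not overlap, and in a limma fit with no filter the adjusted p was 0.147 and 0.157. Values this low rest on few reads, and their depth is unknown.

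The members also varied together between libraries of the same group. Replicate 2 was the lowest siNC library in 26 of 32 members (81.25%), against 37.0% of all tested genes, and the lowest siBCAT1 library in 21 members (65.625%), against 33.2%. It was the lowest in both groups in 19 members (59.375%), against 15.9% of all genes. A high joint share follows in part from the high share in each group, and does not show that libraries of the same number were paired. Replicate 1 was the highest in 23 members in siNC and in 27 in siBCAT1, that is 71.875% and 84.375%, against 42.9% and 45.8% of all genes. The members share their libraries, so this is a description of those libraries and has no test. Each of CSF1, NFKBIE and BCL3 had its lowest level in replicate 2 in both groups.

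**Figure D4:**
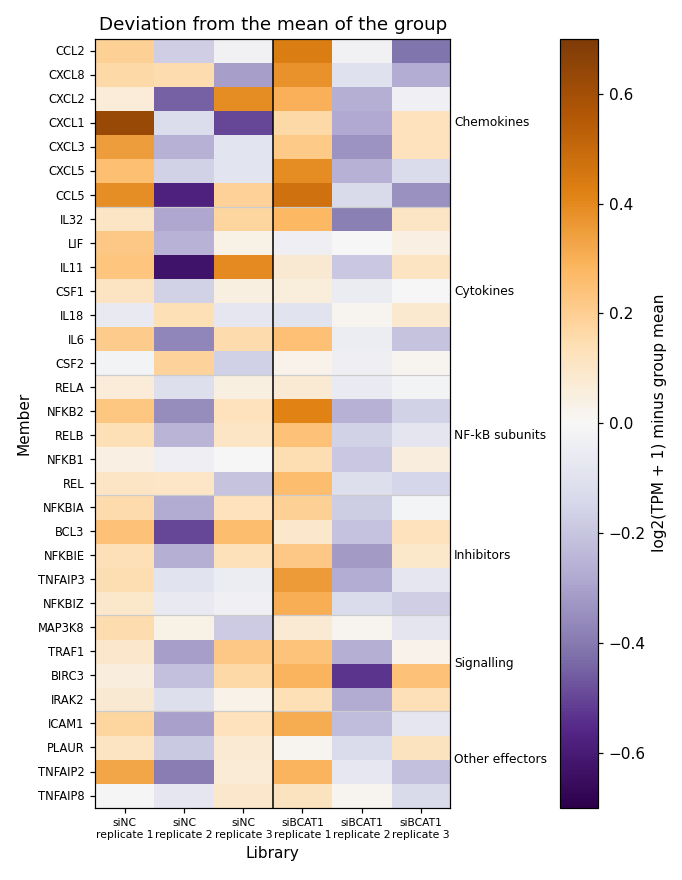
Deviation of each library from the mean of its group (log2 of TPM + 1, colour scale from purple below to orange above 0) for the 32 expressed members, with the siNC libraries left and the siBCAT1 libraries right of the line. The columns of replicate 2 are mostly purple (lowest in 26 members in siNC and in 21 in siBCAT1) and the columns of replicate 1 mostly orange.

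The changes were also set beside the kappaB matches described above. Of the expressed members with an entry, 17 had the consensus or the 9-letter word, their median log2 fold change was 0.02, and CXCL8 and BCL3 were called, in opposite directions. The other 8 had neither in this window, with a median of −0.13, and TNFAIP2 was called. The calls were thus 2 of 17 and 1 of 8, against 27.1% of all tested genes. The other called members, CCL2, IL18, LIF, CSF1 and NFKBIE, had no entry and stand in neither count. Both shares are therefore low partly because most called members had no promoter to search, and they do not describe the members as a whole. CXCL8 and NFKBIA, with the 9-letter word at −91 and −81, gave log2 fold changes of 1.24 and −0.23. These counts describe the window around each start and say nothing of binding or of distant sites.

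The 77 other genes comprised receptors, adaptors and kinases, inhibitors and deubiquitinases, and further target genes, all called pathway genes here. The receptor list also holds receptors of secreted members, such as IL6R and LIFR, which are not receptors that start NF-kB signalling. Across these lists 58 genes were expressed and tested. Of these, 9 rose and 11 fell (34.5% called, against 27.1% of all tested genes), and the median log2 fold change was −0.05. This count was 12 without siBCAT1 replicate 1 and 13 without siBCAT1 replicate 3. Changes in both directions occurred at each level inside the cell, and among the receptors the 3 calls were all falls.

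The receptors that fell were IL6R, LIFR and TNFRSF1A (23.1% called lower, against 10.4% of all tested genes), and the median of the 13 receptors tested was −0.45. IL6R, the ligand-binding receptor of IL6, stood at 11.1, 11.6 and 13.3 TPM in siNC and at 5.67, 6.21 and 6.15 TPM in siBCAT1 (log2 fold change −0.89, SE 0.106, adjusted p = 0.00159). LIFR, the receptor of LIF, stood at 7.62, 6.88 and 5.61 TPM in siNC and at 5.01, 4.02 and 3.61 TPM in siBCAT1 (−0.56, SE 0.157, adjusted p = 0.0354), so that both LIF and its receptor were lower after knockdown. TNFRSF1A, the main TNF receptor of epithelial cells, stood at 186, 132 and 178 TPM in siNC and at 121, 107 and 117 TPM in siBCAT1 (−0.50, SE 0.130, adjusted p = 0.0275). The calls of LIFR and TNFRSF1A were each lost in 6 of 12 settings: LIFR with no filter, with a filter at 5 TPM and without siNC replicates 1 and 2 and siBCAT1 replicates 2 and 3 (adjusted p = 0.104, 0.0550, 0.124, 0.0866, 0.108 and 0.109), and TNFRSF1A with no filter and without siNC replicates 1 and 3 and each siBCAT1 replicate (0.0864, 0.104, 0.104, 0.0722, 0.102 and 0.0800). IL6ST, the signalling chain shared by IL6, IL11 and LIF, did not pass (−0.56, adjusted p = 0.0884), nor did the IL11 receptor IL11RA (−0.54, adjusted p = 0.0832). CXCR1 was listed at 0 in all libraries and CXCR2 in 5 of 6, so the receptors of CXCL8 were at or near 0 in these cells.

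Of the 25 adaptors and kinases 5 rose and 5 fell (20% in each direction, against 16.7% higher and 10.4% lower of all tested genes). The 3 largest rises were TRAF3 (log2 fold change 0.55, SE 0.129, adjusted p = 0.0193), a brake on MAP3K14, TAB1 (0.51, SE 0.0775, adjusted p = 0.00386), a partner of the kinase MAP3K7, and TRAF2 (0.43, SE 0.0950, adjusted p = 0.0158), an adaptor of TNF receptors. The 3 largest falls were TAB2 (−0.80, SE 0.0887, adjusted p = 0.00115), which links MAP3K7 to ubiquitin chains, MAP3K14 (−0.75, SE 0.103, adjusted p = 0.00253), the kinase that starts the noncanonical branch, and RIPK1 (−0.71, SE 0.204, adjusted p = 0.0403), a kinase of the TNF receptor complex. TAB1 thus rose from 18.3 ± 0.711 to 26.4 ± 1.31 TPM while TAB2 fell from 22.5 ± 1.86 to 12.4 ± 0.248 TPM. Likewise MAP3K14 fell from 13.6 ± 1.18 to 7.66 ± 0.485 TPM while TRAF3 rose from 10.6 ± 1.35 to 16.1 ± 2.08 TPM. The remaining falls were TAB3 (−0.69, SE 0.110, adjusted p = 0.00450) and MYD88 (−0.52, SE 0.0772, adjusted p = 0.00353). RBCK1 (0.39, SE 0.0895, adjusted p = 0.0181) and BIRC2 (0.34, SE 0.0688, adjusted p = 0.0120) were the remaining rises. For these genes only the main fit is given. The kinases that mark the inhibitors for degradation, CHUK and IKBKB, and their scaffold IKBKG did not pass (log2 fold changes of 0.17, 0.09 and 0.10, adjusted p = 0.392, 0.529 and 0.453). RIPK1 lost its call with no filter and without siNC replicates 1, 2 and 3 and siBCAT1 replicates 1 and 3 (adjusted p = 0.119, 0.151, 0.0746, 0.0937, 0.125 and 0.108), TRAF3 with no filter and without siNC replicate 3 and siBCAT1 replicates 1 and 2 (0.0568, 0.0666, 0.0695 and 0.0614), and TRAF2 without siNC replicate 1 and siBCAT1 replicates 1 and 3 (0.0659, 0.0599 and 0.0562).

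**Figure D5:**
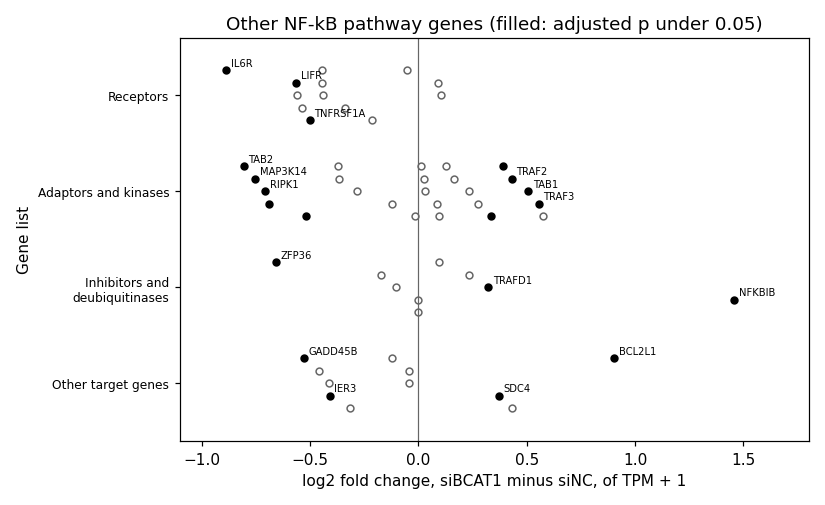
log2 fold change of TPM + 1 (siBCAT1 minus siNC, x axis) of the 58 expressed pathway genes outside the 38, by list; filled points mark the 20 genes past an adjusted p of 0.05 and the genes named in the text are labelled. NFKBIB lies farthest to the right (1.46) and IL6R farthest to the left (−0.89).

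Among 9 further inhibitors and deubiquitinases tested, NFKBIB gave the largest change of all the pathway genes tested, and 2 of the 9 rose and 1 fell (22.2% and 11.1%, against 16.7% and 10.4% of all tested genes). NFKBIB, which encodes IkB beta, stood at 13.3, 18.1 and 17.4 TPM in siNC and at 44.7, 44.7 and 48.9 TPM in siBCAT1 (log2 fold change 1.46, SE 0.121, adjusted p = 0.000418). The rise was 2.83-fold and set NFKBIB apart in direction from NFKBIE and BCL3. Exons of SIRT2, on the opposite strand, overlap those of NFKBIB, and SIRT2 averaged 24.6 TPM and did not pass the test (log2 fold change 0.04, adjusted p = 0.784). TRAFD1, a feedback regulator of Toll-like receptor signalling, rose (0.32, SE 0.0727, adjusted p = 0.0175), and ZFP36, which speeds the decay of cytokine mRNAs, fell (−0.66, SE 0.172, adjusted p = 0.0292). The ZFP36 call was lost with no filter and without siNC replicates 1 and 3 and siBCAT1 replicates 1, 2 and 3 (adjusted p = 0.0886, 0.115, 0.0946, 0.0962, 0.0942 and 0.0805), and that of TRAFD1 without siNC replicate 3 and siBCAT1 replicate 1 (0.0535 and 0.0577).

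Of 11 further target genes tested, BCL2L1 and SDC4 rose and GADD45B and IER3 fell (18.2% in each direction, against 16.7% higher and 10.4% lower of all tested genes). BCL2L1, an inhibitor of apoptosis, stood at 23.6, 23.2 and 21.6 TPM in siNC and at 46.6, 42.3 and 41.9 TPM in siBCAT1 (log2 fold change 0.90, SE 0.0773, adjusted p = 0.000456). SDC4, a cell-surface proteoglycan, rose less (0.37, SE 0.0708, adjusted p = 0.00901). GADD45B, a stress-response protein, fell from 73.5 ± 2.28 to 50.8 ± 5.71 TPM (−0.53, SE 0.0880, adjusted p = 0.00542). IER3, an early response gene, fell from 136 ± 18.8 to 102 ± 5.36 TPM (−0.41, SE 0.101, adjusted p = 0.0235), and its call was lost with no filter and without siNC replicate 1 and siBCAT1 replicates 1, 2 and 3 (adjusted p = 0.0692, 0.0703, 0.0858, 0.0854 and 0.0518).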

How the data were processed

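Per the study's methods, RNA was extracted with TRIzol, a sequencing company made and sequenced the 6 stranded mRNA libraries, and reads were aligned by HISAT2 and assembled by StringTie. The submitters' processing notes also name fastp and GRCh38. Versions, annotation and the strand setting of the counting are not given in the sources used here. The deposited table holds TPM for each gene and library, beside a gene length. This unit is an inference: the values have decimals and sum to nearly the same total in each library. No replicates were pooled. Libraries were grouped by their titles, which name NC or siBCAT1 and a number.

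The members and lists were chosen with earlier results of these data known. Values were taken as log2(TPM + 1). Genes averaging 1 TPM or more (14286 of 60664) entered a two-sided limma test (version 3.58.1, R 4.3.3, lmFit followed by eBayes with a trend), adjusted by Benjamini-Hochberg over all of them, with a threshold of 0.05. Fold changes on this scale understate those of low genes. With 3 against 3 libraries an exact permutation test cannot go below p = 0.1, so none was used. SE is the standard error of the log2 fold change, and SD the standard deviation over the 3 libraries of a group.

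Every member was named. Those past the threshold and the most abundant of each role were given library by library. Of the other pathway genes, up to 3 rises and 3 falls per list among those past the threshold were named. IL6ST, IL11RA, CXCR1, CXCR2, CHUK, IKBKB, IKBKG, TAB3, MYD88, RBCK1 and BIRC2 were named after their values were seen. Positions, exon overlaps and shared 50-base words came from GENCODE 29 on GRCh38. Promoters came from RefSeq (GRCh38.p14). The fit was tested on simulated data. The 12 alternatives were testing with no filter, raising the filter to 5 TPM, lowering the pseudocount to 0.1, adding the replicate number as a block, median-ratio scaling, quantile normalization and leaving out each library in turn. Tables and figures were made in Python 3.11.15 with numpy (2.4.6), pandas (2.3.3) and matplotlib (3.10.9).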

Additional observations from a re-analysis of the deposited data

How the results depend on the processing

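The fall of BCAT1 kept its direction and its call in all 12 alternatives, from −2.28 to −2.03 on the log2 scale with single libraries left out. With no filter on low values 31860 genes were tested, 2567 were called, and the members called lower went from 7 to 3, the secreted factors called to 3 and the subunits and inhibitors called to 0. Median-ratio scaling and quantile normalization each gave 2 calls among signalling proteins and effectors instead of 1, and turned the IL32 estimate to −0.0317 in both. These scalings moved the share of all calls that were higher from 61.6% to 52.1% and 52.3%. With single libraries left out, 2318 to 3706 genes were called, with 1 to 2 members higher, 3 to 9 members lower, 3 to 5 secreted factors, 0 to 3 subunits and inhibitors, 1 to 2 signalling proteins and effectors, and 12 to 19 other pathway genes, and the IL32 estimate lay between −0.13 and 0.21. Fewer libraries enter these fits, and beyond that the cause was not tested. A filter at a mean of 5 TPM and a pseudocount of 0.1 left the calls of all 8 members in place.

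The replicate numbers were not shown to pair the libraries. Deviations from the group means of libraries with the same number correlated at 0.0844, 0.102 and 0.124 over genes, against −0.0814 to −0.0134 for different numbers, so each library correlated best with its own number, but weakly. With the replicate number as a block, 4568 genes were called, and 11 members were lower, adding RELA (adjusted p = 0.0473), MAP3K8 (0.0406), TNFAIP3 and PLAUR, with 4 calls among subunits and inhibitors and 3 among signalling proteins and effectors.

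TPM holds no depth, so the precision rests on 3 libraries per group.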

Other observations

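TBK1, a kinase of the interferon and NF-kB pathways that belongs to the adaptor list, stood at 53.6 TPM in siBCAT1 replicate 3 and between 15.0 and 21.8 TPM in the other 5 libraries (log2 fold change 0.58, SE 0.371, limma adjusted p = 0.293). It was named after its values were seen.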
